A study of Mus musculus with 6 samples.

Results

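Met, Axl and Egfr are receptor tyrosine kinases. Together with 7 genes of their ligands (Hgf, Gas6, Areg, Ereg, Hbegf, Tgfa and Nrg1) they form a set of 10 genes, chosen by name, and all 10 were found by symbol among the 38561 Ensembl genes of the count tables. RNA was measured in 6 libraries, 2 from each of 3 groups. The groups were subcutaneous soft tissue sarcomas, osteosarcomas (one of the right tibia, replicate 1, and one of the lumbar spine, replicate 2), and NG2 cells, taken from skeletal muscle by an antibody sort for the NG2 protein. All 3 groups came from NG2-Cre;p53flox/flox mice of mixed background, in which Cre, driven by the promoter of the NG2 gene Cspg4, removes a floxed part of Trp53, so the NG2 cells carried the same alleles as the tumours. The ages of the mice, and whether each library came from its own mouse, were not given. Every p-value here therefore reflects the spread between samples. That spread may be technical in soft tissue sarcoma and NG2 cells, and in osteosarcoma it includes the difference between the 2 tumour sites.

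Each receptor of this set is a single-pass membrane protein with a kinase domain on its inner side. HGF binds MET and drives the scattering and growth of cells. GAS6, a vitamin K-dependent protein, bridges AXL and its relatives TYRO3 and MERTK to phosphatidylserine on cell surfaces. Amphiregulin (Areg), epiregulin (Ereg), HB-EGF (Hbegf) and TGF-alpha (Tgfa) are made as membrane precursors, shed by metalloproteases, and bind EGFR. Neuregulin 1 (Nrg1) binds the related receptors ERBB3 and ERBB4, which pair with ERBB2. All of these receptors signal in part through the RAS-ERK pathway, and MET, AXL and EGFR are receptors studied widely in sarcomas.

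Between 27693585 and 58126832 reads per library were counted on genes. Of the 8 osteoblast markers, all 8 rose in osteosarcoma against NG2 cells, with a summed normalised read count (CPM, counts scaled to library size) of 35100 and 38700 there. The sums were mostly Col1a1 (32201 and 19599 CPM) and Ibsp (439 and 17589 CPM). Single markers differed between the 2 osteosarcomas in both directions, with Bglap at 1235 and 37.8 CPM. Trp53, the targeted gene, was at 31.2 and 27.3 CPM in soft tissue sarcoma and 24.3 and 32.6 CPM in osteosarcoma, against 101 and 82.3 CPM in NG2 cells; gene counts do not separate the floxed part from the rest. Cspg4 was at 188 and 88.7 CPM in soft tissue sarcoma and 118 and 37.7 CPM in osteosarcoma, against 38.6 and 30.6 CPM in the NG2 cells, so the gene that names the sort was not higher in the sorted cells. The NG2 cell libraries also held B cell markers at summed levels of 5340 and 1770 CPM (7 of 7 fell in each tumour type). Xist, the RNA of the inactive X chromosome, was at 0.0839 and 0.135 CPM in soft tissue sarcoma and 54.2 and 204 CPM in osteosarcoma, against 347 and 488 CPM in NG2 cells. The Y-linked gene Ddx3y was at 76.7 and 43.1 CPM, 14.8 and 0.0356 CPM, and 0 in the same groups, so sex and group cannot be told apart for soft tissue sarcoma, and osteosarcoma replicate 1 held RNA of both genes. By the lane number in the deposited names, each group had a lane of its own, so lane and group cannot be told apart either.

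Axl and Gas6 carried the calls of the set. The 250 bases upstream of their RefSeq transcription starts (GRCm38.p6) are shown because both genes rose in osteosarcoma. Capitals mark GC boxes, GGGCGG or its reverse complement.
Axl, chr7:25788734-25788983, minus strand: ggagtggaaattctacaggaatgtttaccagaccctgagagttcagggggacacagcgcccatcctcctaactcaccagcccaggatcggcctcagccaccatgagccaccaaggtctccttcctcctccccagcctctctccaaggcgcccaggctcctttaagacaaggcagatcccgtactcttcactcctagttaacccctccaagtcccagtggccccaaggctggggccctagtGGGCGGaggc
Gas6, chr8:13494536-13494785, minus strand: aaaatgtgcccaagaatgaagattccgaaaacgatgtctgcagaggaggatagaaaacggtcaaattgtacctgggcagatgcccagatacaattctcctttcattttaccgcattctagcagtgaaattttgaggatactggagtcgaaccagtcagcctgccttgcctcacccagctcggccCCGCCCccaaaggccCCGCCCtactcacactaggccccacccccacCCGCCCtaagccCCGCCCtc
The Gas6 window held 4 GC boxes, and the Axl window held 1. Of all 32851 RefSeq promoter windows of this length, 32.7% held at least 1. The AP-1 motif TGANTCA, which reads the same on both strands, was in neither window and in 6.75% of all windows. Among the 7 members with a RefSeq promoter entry, it was found in Met alone, and the CRE motif TGACGTCA (1.55% of all windows) was found in Areg alone.

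Axl (ENSMUSG00000002602; chromosome 7, 25757273 to 25788705, minus strand, GRCm38) was the only receptor of the 3 that edgeR called in any comparison. It was at 501 and 353 CPM in soft tissue sarcoma and 102 and 60.9 CPM in osteosarcoma, against 27.3 and 34.4 CPM in NG2 cells, and no groups overlapped. Axl rose 13.8-fold in soft tissue sarcoma against NG2 cells (log2 fold change 3.79 with a standard error of 0.40, 2 libraries per group, edgeR adjusted p = 0.00863). It rose 2.64-fold in osteosarcoma against NG2 cells (1.40 ± 0.36, edgeR adjusted p = 0.0436). Soft tissue sarcoma was 5.23-fold above osteosarcoma, a log2 fold change of 2.39 ± 0.38 that did not pass the threshold (edgeR adjusted p = 0.0801). All libraries kept to the order soft tissue sarcoma, osteosarcoma, NG2 cells, and the step between the tumour types was not called.

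The call of Axl in soft tissue sarcoma was lost without soft tissue sarcoma replicate 1 (log2 fold change 3.53, edgeR adjusted p = 0.061) or replicate 2 (4.05, adjusted p = 0.0604), over a range of 2.13e-16 to 0.061 in 14 alternatives. With either of those libraries removed, edgeR called 0 genes of the whole table in that comparison, although 4510 and 4286 genes had an unadjusted p under 0.05. The call in osteosarcoma was lost without NG2 cell replicate 1 (1.24, adjusted p = 0.167), NG2 cell replicate 2 (1.59, adjusted p = 0.121), osteosarcoma replicate 1 (0.98, adjusted p = 0.113), or soft tissue sarcoma replicate 1 or 2 (1.41 and 1.42, adjusted p = 0.0886 and 0.0903), and it held without osteosarcoma replicate 2 (1.74, adjusted p = 0.0262). It was also lost in a fit of the 2 groups compared (1.37, adjusted p = 0.0783) and with a replicate block (1.35, adjusted p = 0.0712). Over all 14 alternatives its adjusted p ranged between 0.00708 and 0.167.

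Gas6 (ENSMUSG00000031451; chromosome 8, 13465374 to 13494490, minus strand), the ligand of AXL, was highest in the bone tumours. It was at 32.1 and 36.7 CPM in soft tissue sarcoma and 69.8 and 192 CPM in osteosarcoma, against 23.1 and 32.0 CPM in NG2 cells. Both osteosarcomas lay above all other libraries, and soft tissue sarcoma and NG2 cells lay within 1.25-fold of each other in the fit. Gas6 rose 4.75-fold in osteosarcoma against NG2 cells (log2 fold change 2.25 ± 0.52; edgeR adjusted p = 0.0329). The log2 fold change was 0.32 ± 0.50 in soft tissue sarcoma against NG2 cells (edgeR adjusted p = 0.673) and -1.93 ± 0.51 in soft tissue sarcoma against osteosarcoma (edgeR adjusted p = 0.176). The rise in osteosarcoma was no longer called without osteosarcoma replicate 2, the higher of the pair (1.36, adjusted p = 0.0559), without NG2 cell replicate 1 (2.02, adjusted p = 0.139) or 2 (2.51, adjusted p = 0.107), or without soft tissue sarcoma replicate 1 or 2 (2.26 in both, adjusted p = 0.0745 and 0.076), or in a fit of the 2 groups compared (2.22, adjusted p = 0.0643). It held at 2.80 without osteosarcoma replicate 1 (adjusted p = 0.0115), and over all alternatives the adjusted p ranged between 0.00087 and 0.139. Of the 2548 exon bases of Gas6, 34 are shared with a gene on the other strand.

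Reads per kilobase of exon (RPKM) were used to set levels of different genes side by side. The length was that of all annotated exons of a gene, which may differ from the transcript expressed, so the comparison is rough. On this scale Axl and its ligand Gas6 took the first 2 places among the members in every group, but in a different order. Axl was at 99.5 and 70.2 RPKM and Gas6 at 12.6 and 14.4 RPKM in soft tissue sarcoma. In osteosarcoma the ligand was the higher one, with Gas6 at 27.4 and 75.3 RPKM and Axl at 20.3 and 12.1 RPKM. In NG2 cells Gas6 was at 9.06 and 12.6 RPKM and Axl at 5.43 and 6.83 RPKM.

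**Figure D1:**
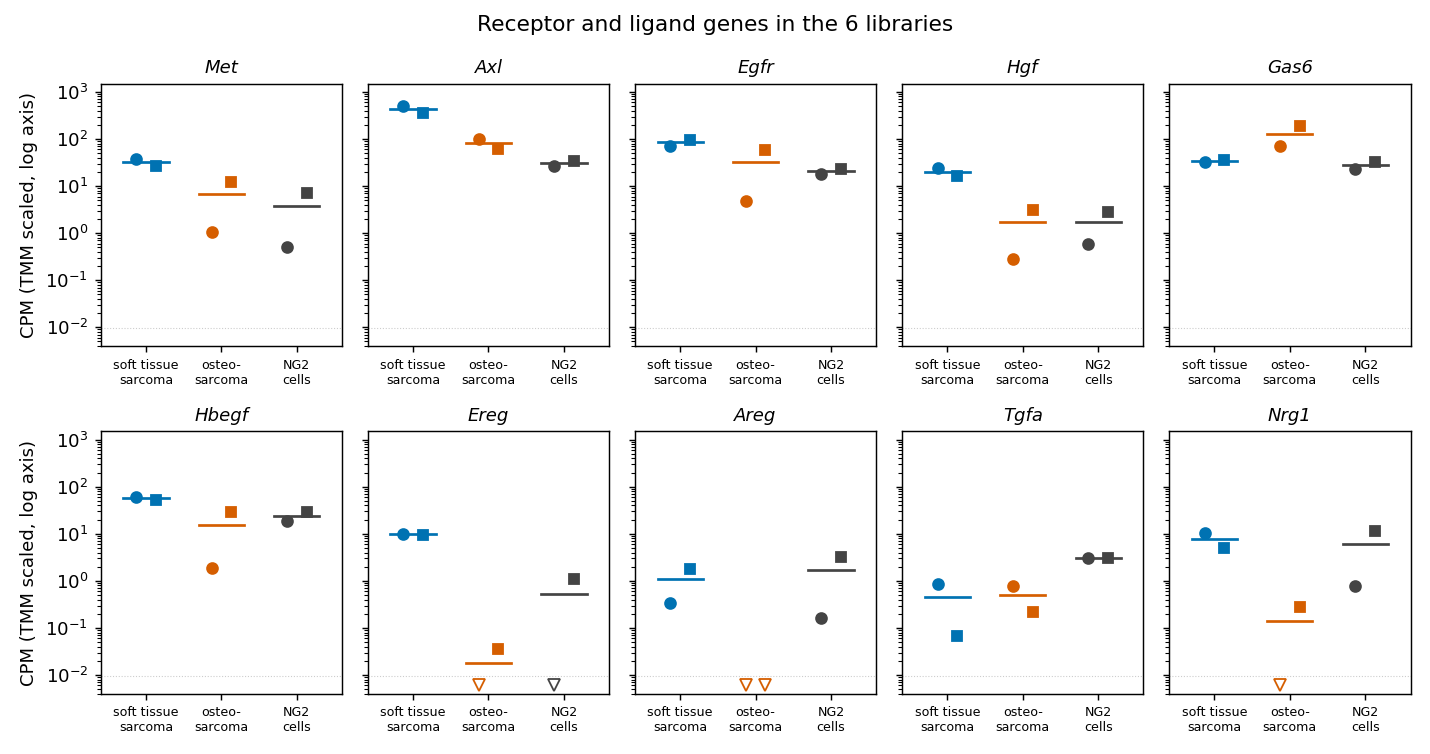
Normalised read counts (CPM, log axis) of the 10 receptor and ligand genes in soft tissue sarcoma, osteosarcoma and NG2 cells; circles are replicate 1, squares replicate 2, bars the group mean, and open triangles below the dotted line libraries with 0 counts. Axl falls into 3 separate levels, Gas6 is highest in both osteosarcomas, and Met, Egfr, Hgf and Hbegf lie far apart in the osteosarcoma pair.

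The other receptors and the remaining ligands were not called in any of the 3 comparisons at an edgeR adjusted p under 0.05. In soft tissue sarcoma against NG2 cells 1 of 10 members rose and 0 fell, where 9.89% of all 19024 tested genes rose and 9.40% fell (19.3% called). In osteosarcoma against NG2 cells 2 of 10 rose and 0 fell, beside 10.5% and 11.0% of all tested genes (21.5% called). By edgeR, neither share of called members was above that of all tested genes. Between soft tissue sarcoma and osteosarcoma none of the 10 was called by edgeR, where 0.142% of all tested genes were (0.0841% rose and 0.0578% fell). Unadjusted p was under 0.05 for 2 members in soft tissue sarcoma against NG2 cells, 4 in osteosarcoma against NG2 cells and 6 in soft tissue sarcoma against osteosarcoma, beside 37.5%, 39.1% and 15.9% of all tested genes. DESeq2 called 3 members as higher in soft tissue sarcoma than in NG2 cells (Hgf, Axl and Ereg) and 2 as higher (Axl and Gas6) and 3 as lower (Areg, Ereg and Nrg1) in osteosarcoma than in NG2 cells. Between the tumour types it called 6 (Hgf, Axl, Areg, Ereg and Nrg1 as higher and Gas6 as lower in soft tissue sarcoma). Over all genes with an adjusted p, the share called by DESeq2 was 34.4% for soft tissue sarcoma against NG2 cells, 35.5% in osteosarcoma against NG2 cells and 10.6% in soft tissue sarcoma against osteosarcoma. All 10 members passed the filter on low counts.

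Both soft tissue sarcoma libraries lay above both osteosarcoma libraries for 8 of 10 members (25.8% of all tested genes) and below them for Gas6 alone (24.5%). They lay above both NG2 cell libraries for 7 of 10 members (35.8%) and below them for Tgfa alone (34.6%). Gas6 was among the 7 by a narrow margin, at 32.08 CPM in soft tissue sarcoma replicate 1 against 31.98 CPM in NG2 cell replicate 2. Both osteosarcomas lay above both NG2 cell libraries for 2 members, Axl and Gas6 (32.7%), and below them for 3 (Areg, Tgfa and Nrg1; 32.4%). The median log2 fold change of the members was 1.64 in soft tissue sarcoma against NG2 cells, -0.32 in osteosarcoma against NG2 cells and 2.33 in soft tissue sarcoma against osteosarcoma, beside medians of 0.00, 0.04 and -0.03 over all tested genes. These comparisons share their groups and are not independent of each other.

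Met (ENSMUSG00000009376; chromosome 6, 17463800 to 17573980, plus strand), the receptor of HGF, had 37.1 and 26.9 CPM in soft tissue sarcoma and 1.08 and 12.2 CPM in osteosarcoma, against 0.499 and 7.11 CPM in NG2 cells. Soft tissue sarcoma was above every other library, whereas osteosarcoma and NG2 cells overlapped, each with 1 low and 1 higher library. The log2 fold change of Met in soft tissue sarcoma was 3.07 ± 1.48 against NG2 cells (edgeR adjusted p = 0.188) and 2.27 ± 1.43 against osteosarcoma (edgeR adjusted p = 0.499), so neither difference passed the threshold. In osteosarcoma against NG2 cells it was 0.80 ± 1.39 (edgeR adjusted p = 0.705).

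Hgf (ENSMUSG00000028864; chromosome 5, 16553495 to 16620152, plus strand), a ligand made mainly by mesenchymal cells, was likewise highest in soft tissue sarcoma. It was at 23.9 and 16.3 CPM in soft tissue sarcoma and 0.284 and 3.13 CPM in osteosarcoma, against 0.582 and 2.87 CPM in NG2 cells. The soft tissue sarcomas stood apart and the other groups overlapped. Hgf had a log2 fold change of 3.54 ± 1.29 against NG2 cells (edgeR adjusted p = 0.103; 0.0101 to 0.298 over 14 alternatives) and 3.57 ± 1.30 against osteosarcoma (edgeR adjusted p = 0.268). Osteosarcoma against NG2 cells had a log2 fold change of -0.03 ± 1.19 (edgeR adjusted p = 0.989). In soft tissue sarcoma Hgf was at 3.33 and 2.26 RPKM and Met at 4.83 and 3.50 RPKM.

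Egfr (ENSMUSG00000020122; chromosome 11, 16752203 to 16918158, plus strand), the receptor of the EGF family, had 71.7 and 97.4 CPM in soft tissue sarcoma and 4.72 and 59.4 CPM in osteosarcoma, against 18.4 and 23.4 CPM in NG2 cells. The osteosarcoma replicates lay on either side of the NG2 cells, 12.6-fold apart. The log2 fold change of Egfr was 2.02 ± 1.03 in soft tissue sarcoma against NG2 cells (edgeR adjusted p = 0.207), 0.61 ± 0.99 in osteosarcoma against NG2 cells (adjusted p = 0.683) and 1.40 ± 1.01 in soft tissue sarcoma against osteosarcoma (adjusted p = 0.555). The value in osteosarcoma was decided by the library that was kept. Against NG2 cells it was 1.50 without osteosarcoma replicate 1 (edgeR adjusted p = 0.0452) and -2.13 without osteosarcoma replicate 2 (adjusted p = 0.0267), the opposite direction. With either osteosarcoma left out, Egfr passed in soft tissue sarcoma against NG2 cells at log2 fold changes of 2.05 and 2.04 (adjusted p = 0.011 and 0.0114), and without osteosarcoma replicate 2 it passed in soft tissue sarcoma against osteosarcoma (4.17, adjusted p = 0.0271). Over all alternatives the adjusted p of Egfr ranged between 0.0102 and 0.454 in soft tissue sarcoma against NG2 cells, 0.0267 and 0.998 in osteosarcoma against NG2 cells, and 0.0271 and 0.928 in soft tissue sarcoma against osteosarcoma.

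Hbegf (ENSMUSG00000024486; chromosome 18, 36504927 to 36515805, minus strand), a ligand of EGFR and the receptor of diphtheria toxin in human cells, resembled Egfr. It was at 59.6 and 53.3 CPM in soft tissue sarcoma and 1.84 and 29.3 CPM in osteosarcoma, against 18.6 and 28.8 CPM in NG2 cells. Soft tissue sarcoma was above all other libraries, and the osteosarcomas were 16.0-fold apart. The log2 fold change was 1.25 ± 1.08 in soft tissue sarcoma against NG2 cells (edgeR adjusted p = 0.434), -0.61 ± 1.07 in osteosarcoma against NG2 cells (adjusted p = 0.708) and 1.86 ± 1.10 in soft tissue sarcoma against osteosarcoma (adjusted p = 0.47). Without osteosarcoma replicate 2, Hbegf was lower in osteosarcoma than in NG2 cells by a log2 fold change of -3.67 (adjusted p = 0.0122), and soft tissue sarcoma was above osteosarcoma by 4.95 (adjusted p = 0.0263). With osteosarcoma replicate 1 or 2 left out, soft tissue sarcoma was above NG2 cells by 1.28 and 1.27 (adjusted p = 0.0448 and 0.0474). Over all alternatives the adjusted p of Hbegf ranged between 0.0361 and 0.681 in soft tissue sarcoma against NG2 cells, 0.0122 and 0.929 in osteosarcoma against NG2 cells, and 0.0263 and 0.831 in soft tissue sarcoma against osteosarcoma.

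Hbegf was the EGFR ligand with the highest level per length in every group by its mean. It was at 12.3 and 11.0 RPKM in soft tissue sarcoma, 0.380 and 6.07 RPKM in osteosarcoma, and 3.86 and 5.95 RPKM in NG2 cells. Egfr itself was at 6.33 and 8.60 RPKM, 0.417 and 5.25 RPKM, and 1.63 and 2.07 RPKM in the same groups.

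Ereg (ENSMUSG00000029377; chromosome 5, 91074622 to 91093646, plus strand), which binds EGFR and ERBB4, was higher in both soft tissue sarcomas than in any other library. It was at 9.76 and 9.67 CPM in soft tissue sarcoma and 0 and 0.0356 CPM in osteosarcoma, against 0 and 1.08 CPM in NG2 cells. The osteosarcoma group held 1 count of Ereg against 869 counts in soft tissue sarcoma, a ratio of pooled CPM of 787 with an exact 95% interval of 141 to 31100, which covers counting error only. The difference between the tumour types did not pass the threshold in edgeR (adjusted p = 0.177) and passed in DESeq2 (adjusted p = 0.000391; 0.000391 to 0.589 over all alternatives). In soft tissue sarcoma against NG2 cells the log2 fold change was 4.15 ± 1.81 (edgeR adjusted p = 0.152), and all 47 counts of the NG2 cells were in replicate 2. Osteosarcoma against NG2 cells was not called either (edgeR adjusted p = 0.156; 0.0418 to 0.556 over alternatives), with pooled CPM 47.7-fold higher in NG2 cells (exact 95% interval 8.15 to 1920).

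Areg (ENSMUSG00000029378; chromosome 5, 91139599 to 91148432, plus strand), the neighbour of Ereg and also an EGFR ligand, was low in all libraries. It was at 0.336 and 1.82 CPM in soft tissue sarcoma and 0.166 and 3.23 CPM in NG2 cells, which overlapped. Both osteosarcomas had 0 counts. With 3 counts over the group as the floor (0.0371 CPM), the mean of soft tissue sarcoma was at least 29.1-fold higher than osteosarcoma (edgeR adjusted p = 0.234), and osteosarcoma was at least 45.8-fold lower than NG2 cells (edgeR adjusted p = 0.0676). Both limits rest on replicate 2 of the higher group. With replicate 1 alone they were 9.04-fold for soft tissue sarcoma and 4.48-fold for NG2 cells, and with replicate 2 alone 49.0-fold and 87.1-fold. DESeq2 called both differences from osteosarcoma (adjusted p = 0.0128 and 0.00158), and edgeR without the filter on low counts called the second (adjusted p = 0.0409). Soft tissue sarcoma against NG2 cells had a log2 fold change of -0.67 ± 1.61 (edgeR adjusted p = 0.795). Over all alternatives the adjusted p ranged between 0.0128 and 0.692 for the first difference and between 0.00158 and 0.198 for the second.

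Tgfa (ENSMUSG00000029999; chromosome 6, 86195223 to 86275719, plus strand) was higher in both NG2 cell libraries than in any tumour. It was at 0.856 and 0.0674 CPM in soft tissue sarcoma and 0.796 and 0.213 CPM in osteosarcoma, against 3.05 CPM in both NG2 cell libraries. The tumour types overlapped with each other and not with the NG2 cells. Against NG2 cells the log2 fold change was -2.69 ± 1.32 in soft tissue sarcoma (edgeR adjusted p = 0.192) and -2.57 ± 1.31 in osteosarcoma (edgeR adjusted p = 0.2), and between soft tissue sarcoma and osteosarcoma it was -0.12 ± 1.25 (edgeR adjusted p = 0.99).

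Nrg1 (ENSMUSG00000062991; chromosome 8, 31814551 to 32884029, minus strand), the ligand of ERBB3 and ERBB4, was at 10.4 and 5.12 CPM in soft tissue sarcoma and 0 and 0.284 CPM in osteosarcoma, against 0.776 and 11.6 CPM in NG2 cells. The 8 counts of the osteosarcoma group were all in replicate 2. Soft tissue sarcoma and NG2 cells overlapped, and both lay above osteosarcoma. Nrg1 had a log2 fold change of 5.88 ± 2.02 in soft tissue sarcoma against osteosarcoma (edgeR adjusted p = 0.246) and -5.55 ± 1.99 in osteosarcoma against NG2 cells (edgeR adjusted p = 0.0946), and DESeq2 called both (adjusted p = 0.00611 and 0.00323, over alternatives up to 0.705 and 0.378). Single libraries moved these values: without osteosarcoma replicate 2 they were 11.43 and -11.08, without osteosarcoma replicate 1 they were 4.79 and -4.43, and without NG2 cell replicate 2 the difference between osteosarcoma and NG2 cells was -2.55. In soft tissue sarcoma against NG2 cells it was 0.33 ± 1.58 (edgeR adjusted p = 0.902). Of the 10351 exon bases of Nrg1, 482 are shared with a gene on the other strand, and the strand setting of the counting is not given, so reads from that stretch are uncertain.

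**Figure D2:**
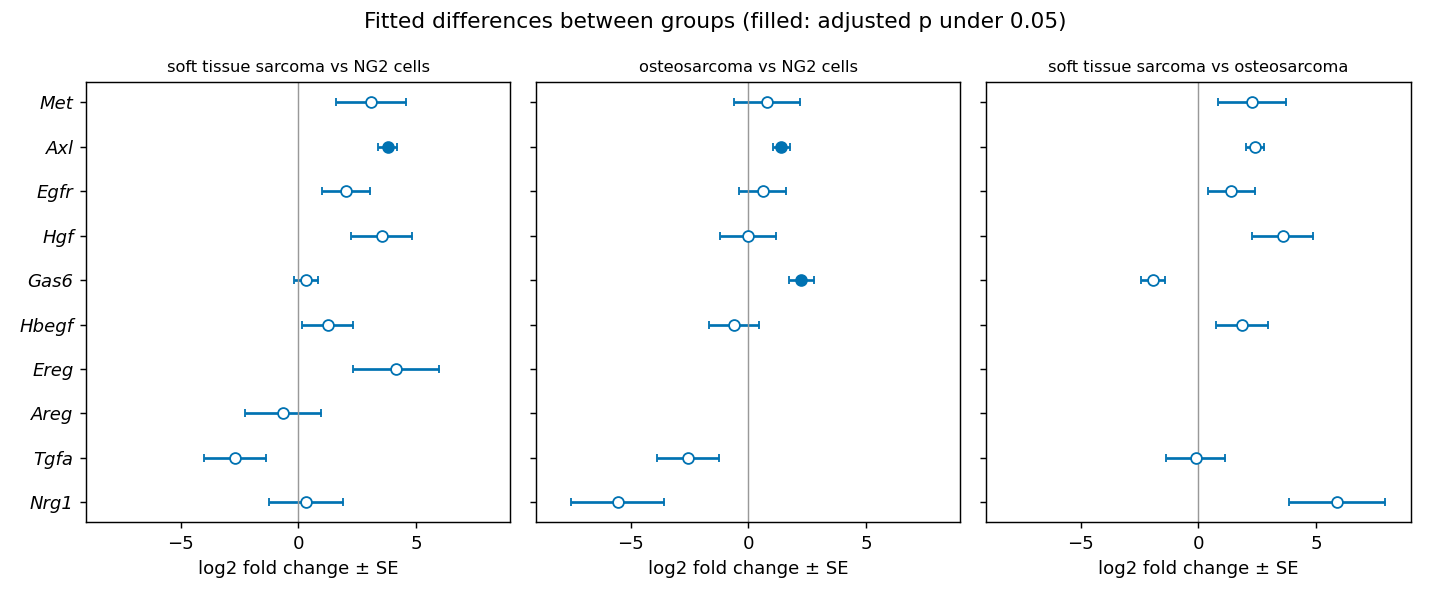
Log2 fold changes with their standard errors for the 10 genes in soft tissue sarcoma against NG2 cells, osteosarcoma against NG2 cells, and soft tissue sarcoma against osteosarcoma; filled points passed an edgeR adjusted p of 0.05. Axl is filled in both comparisons with NG2 cells and Gas6 in osteosarcoma; Ereg and Areg are left out where osteosarcoma held at most 3 counts.

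The members split the osteosarcoma pair. Replicate 2, from the spine, was above replicate 1, from the tibia, by 11.3-fold for Met, 11.0-fold for Hgf, 12.6-fold for Egfr, 16.0-fold for Hbegf and 2.75-fold for Gas6. Axl and Tgfa were higher in replicate 1, by 1.68-fold and 3.73-fold. The pair also differed in sex-linked RNA, with Ddx3y at 14.8 and 0.0356 CPM and Xist at 54.2 and 204 CPM in replicates 1 and 2. Tumour site and this difference cannot be told apart. Soft tissue sarcoma replicates were within 1.47-fold of each other for Met, Hgf, Axl, Gas6, Egfr, Ereg and Hbegf, and they were further apart for Nrg1 (2.02-fold), Areg (5.42-fold) and Tgfa (12.7-fold). In NG2 cells replicate 2 was higher for Met (14.3-fold), Hgf (4.93-fold), Areg (19.4-fold) and Nrg1 (14.9-fold), and within 1.54-fold for Axl, Gas6, Egfr, Hbegf and Tgfa.

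Markers of other cell types differed between the same replicates. In osteosarcoma replicates 1 and 2 the 6 osteoclast genes summed to 719 and 14700 CPM, 7 skeletal muscle fibre genes to 10.3 and 1210 CPM, 7 endothelial genes to 136 and 381 CPM, and 7 pericyte genes to 311 and 808 CPM. None of those 4 lists had a gene at 0 in both osteosarcomas. In NG2 cell replicates 1 and 2 the 7 granulocyte genes summed to 59.8 and 3080 CPM and the 7 B cell genes to 5340 and 1770 CPM. Their part in the levels of Met, Hgf, Egfr, Hbegf, Areg and Nrg1 was not tested, and in such bulk samples fewer cells of a type and less RNA per cell cannot be told apart.

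Other lists moved with the groups. The 7 genes of macrophages, cells that express GAS6 receptors, summed to 2780 and 2260 CPM in soft tissue sarcoma and 1200 and 1590 CPM in osteosarcoma, against 411 and 667 CPM in NG2 cells, and 3 of 7 rose in each tumour type. The 7 fibroblast genes summed to 7430 and 5900 CPM, 35600 and 20400 CPM, and 808 and 392 CPM in the same groups, with 2 of 7 called as higher in each tumour type. Most of that sum in osteosarcoma was Col1a2, a collagen gene that bone cells also express, at 33134 and 18091 CPM. The median log2 fold change of the fibroblast genes in soft tissue sarcoma against osteosarcoma was 1.24, opposite in direction to the sums. The 12 immediate early and heat shock genes, a sign of stress in sorted cells, summed to 484 and 312 CPM, 320 and 306 CPM, and 7690 and 8830 CPM; 11 of 12 fell in soft tissue sarcoma and 12 of 12 in osteosarcoma against NG2 cells. Keratinocyte and epithelial genes, whose cells are a source of EGFR ligands, summed to 12.2 and 115 CPM in soft tissue sarcoma and 7.35 and 10.0 CPM in osteosarcoma, against 55.4 and 24.9 CPM in NG2 cells, and Krt5 was at 0 in both tumour types. The 7 T cell genes summed to 27.2 and 17.0 CPM in soft tissue sarcoma and 5.04 and 9.85 CPM in osteosarcoma, against 481 and 666 CPM in NG2 cells. The 7 endothelial genes summed to 223 and 176 CPM, 136 and 381 CPM, and 707 and 1220 CPM in the same groups. B cell genes, given above, were likewise highest in NG2 cells. The part of all these lists in the levels of Axl, Gas6 and the other members was not tested.

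**Figure D3:**
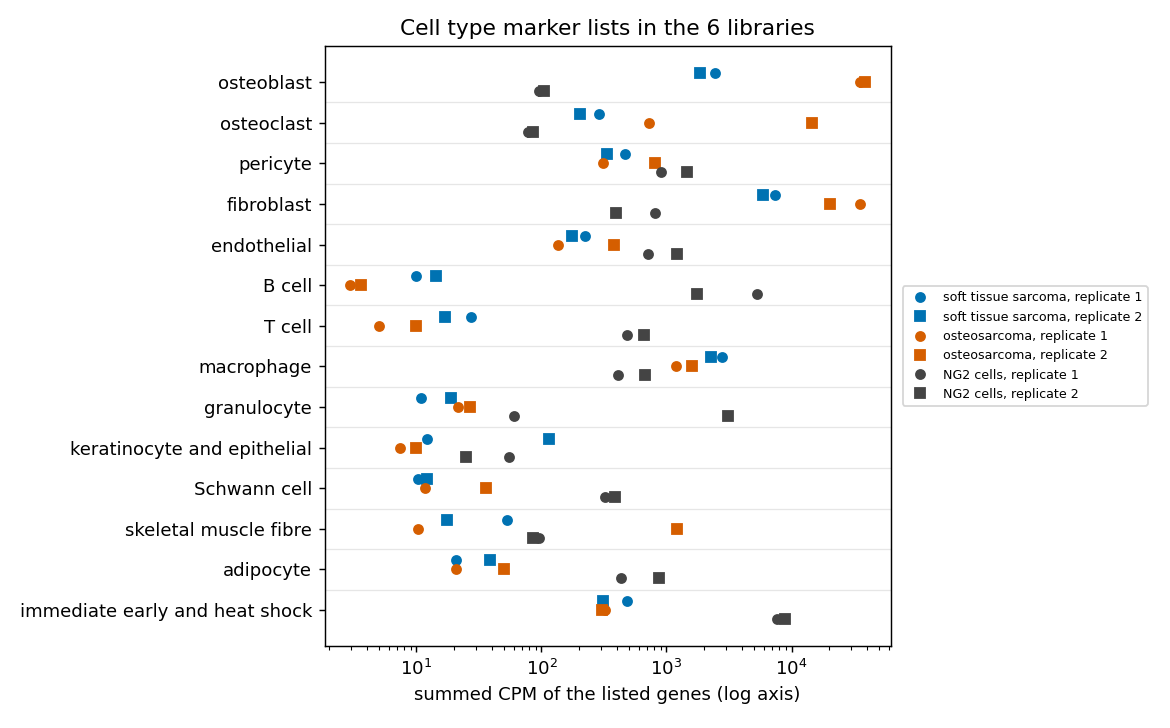
Summed CPM (log axis) of 14 lists of marker genes in each library, with circles for replicate 1 and squares for replicate 2. B cell, T cell, Schwann cell and immediate early genes are highest in the NG2 cells, osteoblast genes in osteosarcoma, and the osteosarcoma pair differs most in osteoclast and skeletal muscle fibre genes.

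Relatives of the 3 receptors did not all follow them. The counts of this and the later pathway lists stand beside shares over all genes. In soft tissue sarcoma against NG2 cells, osteosarcoma against NG2 cells and between the tumour types, edgeR called 19.3%, 21.5% and 0.142%. Unadjusted p was under 0.05 for 37.5%, 39.1% and 15.9% in the same order, and DESeq2 called 34.4%, 35.5% and 10.6%. Of 6 related receptors, 5 were tested: Tyro3 and Mst1r rose and Erbb3 fell in osteosarcoma against NG2 cells, Tyro3 rose and Erbb3 fell in soft tissue sarcoma, and none was called between the tumour types, where 0 had an unadjusted p under 0.05 and DESeq2 called 0. Their median log2 fold change was 0.65 in soft tissue sarcoma against NG2 cells, 1.91 in osteosarcoma against NG2 cells and 0.20 in soft tissue sarcoma against osteosarcoma. Tyro3, which shares the ligand GAS6 with Axl, was at 10.4 and 10.1 CPM in soft tissue sarcoma and 9.19 and 4.91 CPM in osteosarcoma, against 0.720 and 0.413 CPM in NG2 cells. It rose by a log2 fold change of 4.17 ± 0.67 in soft tissue sarcoma (edgeR adjusted p = 0.0156) and 3.64 ± 0.66 in osteosarcoma (edgeR adjusted p = 0.0182). Mertk, the third receptor of GAS6, was at 34.5 and 30.6 CPM, 24.6 and 20.9 CPM, and 18.5 and 31.4 CPM in the same groups, and its log2 fold changes against NG2 cells of 0.38 ± 0.36 and -0.13 ± 0.36 were not called (edgeR adjusted p = 0.478 and 0.821).

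Mst1r, the MET relative known as RON, was at 6.21 and 4.72 CPM in soft tissue sarcoma and 1.95 and 50.6 CPM in osteosarcoma, against 0.139 and 0 CPM in NG2 cells. It rose in osteosarcoma (log2 fold change 8.58 ± 2.08, edgeR adjusted p = 0.037) with most of its counts in osteosarcoma replicate 2, and without that library the log2 fold change was 4.83 (adjusted p = 0.0767; 4.89e-07 to 0.139 over all alternatives). In soft tissue sarcoma against NG2 cells Mst1r had a log2 fold change of 6.32 ± 1.93, which edgeR did not call (adjusted p = 0.068) and DESeq2 did. Erbb3, a receptor of neuregulins that Schwann cells also express, was at 1.44 and 1.08 CPM in soft tissue sarcoma and 0.398 and 1.85 CPM in osteosarcoma, against 48.9 and 35.4 CPM in NG2 cells. Erbb3 fell by a log2 of 5.05 ± 0.83 in soft tissue sarcoma (edgeR adjusted p = 0.0162) and by 5.25 ± 0.84 in osteosarcoma (edgeR adjusted p = 0.0137). The Schwann cell list, which includes Erbb3, summed to 10.3 and 12.1 CPM, 11.7 and 35.9 CPM, and 323 and 386 CPM in the same groups, with Sox10 and Foxd3 at 0 in soft tissue sarcoma, and its part in the fall of Erbb3 was not tested. Erbb2 was not called, and Erbb4, a receptor of Nrg1 and Ereg, had 0 counts in all 6 libraries.

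Of 8 further ligands (Egf, Btc, Epgn, Nrg2, Nrg3, Nrg4, Pros1 and Mst1), 5 were tested and none was called by edgeR in any comparison. Unadjusted p was under 0.05 for 0, 1 and 1 of them in soft tissue sarcoma against NG2 cells, osteosarcoma against NG2 cells and soft tissue sarcoma against osteosarcoma, and DESeq2 called Pros1 alone, as lower in osteosarcoma than in NG2 cells. Median log2 fold changes in the same order of comparisons were 0.11, -0.67 and 0.24. Btc, an EGFR ligand of the same stretch of chromosome 5 as Ereg and Areg, was at 8.74 and 5.09 CPM in soft tissue sarcoma and 0.0379 and 1.49 CPM in osteosarcoma, against 0.139 and 5.50 CPM in NG2 cells. Pros1, a ligand of TYRO3 and MERTK, was at 107 and 132 CPM, 54.6 and 74.7 CPM, and 112 and 110 CPM in the same groups. Nrg3 had 0 counts in all libraries.

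Among 10 genes of ligand shedding and activation, Rhbdf1 rose in both tumour types and Plau rose in soft tissue sarcoma against NG2 cells. None fell by edgeR. DESeq2 called Rhbdf1 and Plau as higher and Rhbdf2 and Spint2 as lower in soft tissue sarcoma than in NG2 cells. It called Rhbdf1 as higher and St14 as lower in osteosarcoma than in NG2 cells. Spint2 was at 3.25 and 1.18 CPM in soft tissue sarcoma and 0.455 and 11.0 CPM in osteosarcoma, against 27.5 and 37.4 CPM in NG2 cells. No gene of the list was called by edgeR between the tumour types (1 with an unadjusted p under 0.05, and 1, Plau, called by DESeq2). The median log2 fold change was -0.84 in soft tissue sarcoma against NG2 cells, -0.31 in osteosarcoma against NG2 cells and -0.12 in soft tissue sarcoma against osteosarcoma. Rhbdf1, an inactive rhomboid that carries the sheddase ADAM17 to the cell surface, was at 53.9 and 46.0 CPM in soft tissue sarcoma and 67.9 and 63.7 CPM in osteosarcoma, against 13.7 and 5.34 CPM in NG2 cells. Its log2 fold changes were 2.39 ± 0.49 in soft tissue sarcoma (edgeR adjusted p = 0.0258) and 2.79 ± 0.49 in osteosarcoma (edgeR adjusted p = 0.0173), and the call in osteosarcoma held with each of the 6 libraries left out in turn. Plau, the urokinase gene, was at 112 and 83.9 CPM in soft tissue sarcoma and 22.8 and 25.1 CPM in osteosarcoma, against 19.7 and 15.6 CPM in NG2 cells (log2 fold change 2.48 ± 0.31 in soft tissue sarcoma against NG2 cells, edgeR adjusted p = 0.0107). The sheddase genes Adam10 and Adam17 were not called in any comparison.

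Among 10 adaptors and receptor inhibitors, Shc1 and Errfi1 rose in soft tissue sarcoma against NG2 cells, and Cbl fell in osteosarcoma. DESeq2 called Shc1, Errfi1 and Lrig3 as higher and Cbl as lower in soft tissue sarcoma than in NG2 cells. It called Lrig3 as higher and Cbl and Cblb as lower in osteosarcoma than in NG2 cells. No gene of the list was called by edgeR between the tumour types (3 with an unadjusted p under 0.05, and 2, Shc1 and Errfi1, called by DESeq2). Median log2 fold changes were 0.60 in soft tissue sarcoma against NG2 cells, 0.09 in osteosarcoma against NG2 cells and 0.60 in soft tissue sarcoma against osteosarcoma. Errfi1, an inhibitor that binds the EGFR kinase, was at 319 and 164 CPM in soft tissue sarcoma and 38.6 and 85.7 CPM in osteosarcoma, against 32.5 and 47.1 CPM in NG2 cells, and it rose by a log2 fold change of 2.60 ± 0.54 (edgeR adjusted p = 0.027). Shc1, an adaptor of activated receptors, was at 149 and 137 CPM in soft tissue sarcoma and 49.3 and 51.9 CPM in NG2 cells, a log2 fold change of 1.50 ± 0.26 (edgeR adjusted p = 0.0183). Cbl, a ubiquitin ligase that marks receptors for breakdown, was at 22.2 and 21.2 CPM in osteosarcoma, against 55.4 and 77.1 CPM in NG2 cells, and it fell by 1.61 ± 0.30 on the log2 scale (edgeR adjusted p = 0.0195).

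Of 12 genes of ERK feedback and output, 2 rose in soft tissue sarcoma against NG2 cells (Fosl1 and Etv4), 1 rose and 1 fell in osteosarcoma (Etv4 and Ier3), and Fosl1 rose in soft tissue sarcoma against osteosarcoma. Fosl1, an AP-1 subunit of the FOS family, was at 159 and 239 CPM in soft tissue sarcoma and 6.75 and 4.16 CPM in osteosarcoma, against 3.46 and 5.14 CPM in NG2 cells. Its log2 fold change was 5.53 ± 0.47 against NG2 cells (edgeR adjusted p = 0.0073) and 5.18 ± 0.46 against osteosarcoma (edgeR adjusted p = 0.0428). Etv4, an ETS factor that ERK signals induce, was at 44.9 and 52.3 CPM, 10.5 and 6.29 CPM, and 0.305 and 1.15 CPM in the same groups. Etv4 rose by 6.05 ± 0.77 on the log2 scale in soft tissue sarcoma (edgeR adjusted p = 0.0108) and 3.52 ± 0.69 in osteosarcoma (edgeR adjusted p = 0.0221). Ier3, an early response gene, fell by 2.49 ± 0.44 in osteosarcoma (edgeR adjusted p = 0.0174), beside the fall of the immediate early list. The feedback genes Dusp6, Spry2 and Spry4 were not called by edgeR in any comparison, while DESeq2 called Spry4 as higher in soft tissue sarcoma than in NG2 cells and Spry2 as lower in osteosarcoma than in NG2 cells. Unadjusted p was under 0.05 for 4 genes of the list in soft tissue sarcoma against NG2 cells, 5 in osteosarcoma against NG2 cells and 8 in soft tissue sarcoma against osteosarcoma. The shares of all tested genes were 37.5%, 39.1% and 15.9%. DESeq2 called 4 as higher and 0 as lower in soft tissue sarcoma than in NG2 cells, 2 as higher and 3 as lower in osteosarcoma than in NG2 cells, and 4 as higher in soft tissue sarcoma than in osteosarcoma (Etv4, Etv5, Fosl1 and Ier3). Median log2 fold changes of the list were 0.69 in soft tissue sarcoma against NG2 cells, -0.52 in osteosarcoma against NG2 cells and 1.47 in soft tissue sarcoma against osteosarcoma.

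Leaving out either soft tissue sarcoma library ended the calls of these relatives in soft tissue sarcoma against NG2 cells, as it did for every gene of the table, and ended those of Tyro3, Mst1r, Etv4 and Cbl in osteosarcoma. Without NG2 cell replicate 1 or without replicate 2, the calls of Tyro3, Erbb3, Shc1 and Errfi1 in soft tissue sarcoma were lost, as were those of Tyro3, Mst1r and Ier3 in osteosarcoma. Without NG2 cell replicate 2 alone, Rhbdf1 and Plau lost their call in soft tissue sarcoma and Cbl its call in osteosarcoma, and without NG2 cell replicate 1 alone Erbb3 and Etv4 lost theirs in osteosarcoma. With each library left out in turn, the highest adjusted p was 0.0998 and 0.0713 for Tyro3 in soft tissue sarcoma and osteosarcoma, 0.128 and 0.054 for Erbb3, 0.0764 and 0.0634 for Etv4, and 0.129 and 0.0472 for Rhbdf1. It was 0.0821 for Plau, 0.124 for Shc1 and 0.137 for Errfi1 in soft tissue sarcoma, and 0.0784 for Cbl and 0.0713 for Ier3 in osteosarcoma. In soft tissue sarcoma against osteosarcoma, Fosl1 was called without either osteosarcoma library and lost without any of the other 4 (adjusted p up to 0.273). That call was also lost with a replicate block (log2 fold change 5.15, adjusted p = 0.08) and in a fit of the 2 groups compared (5.20, adjusted p = 0.0705). In osteosarcoma against NG2 cells, the call of Mst1r was lost with the block (8.13, adjusted p = 0.0838), and those of Mst1r, Tyro3 and Etv4 were lost in the fit of the 2 groups (adjusted p = 0.0668, 0.0586 and 0.0728).

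**Figure D4:**
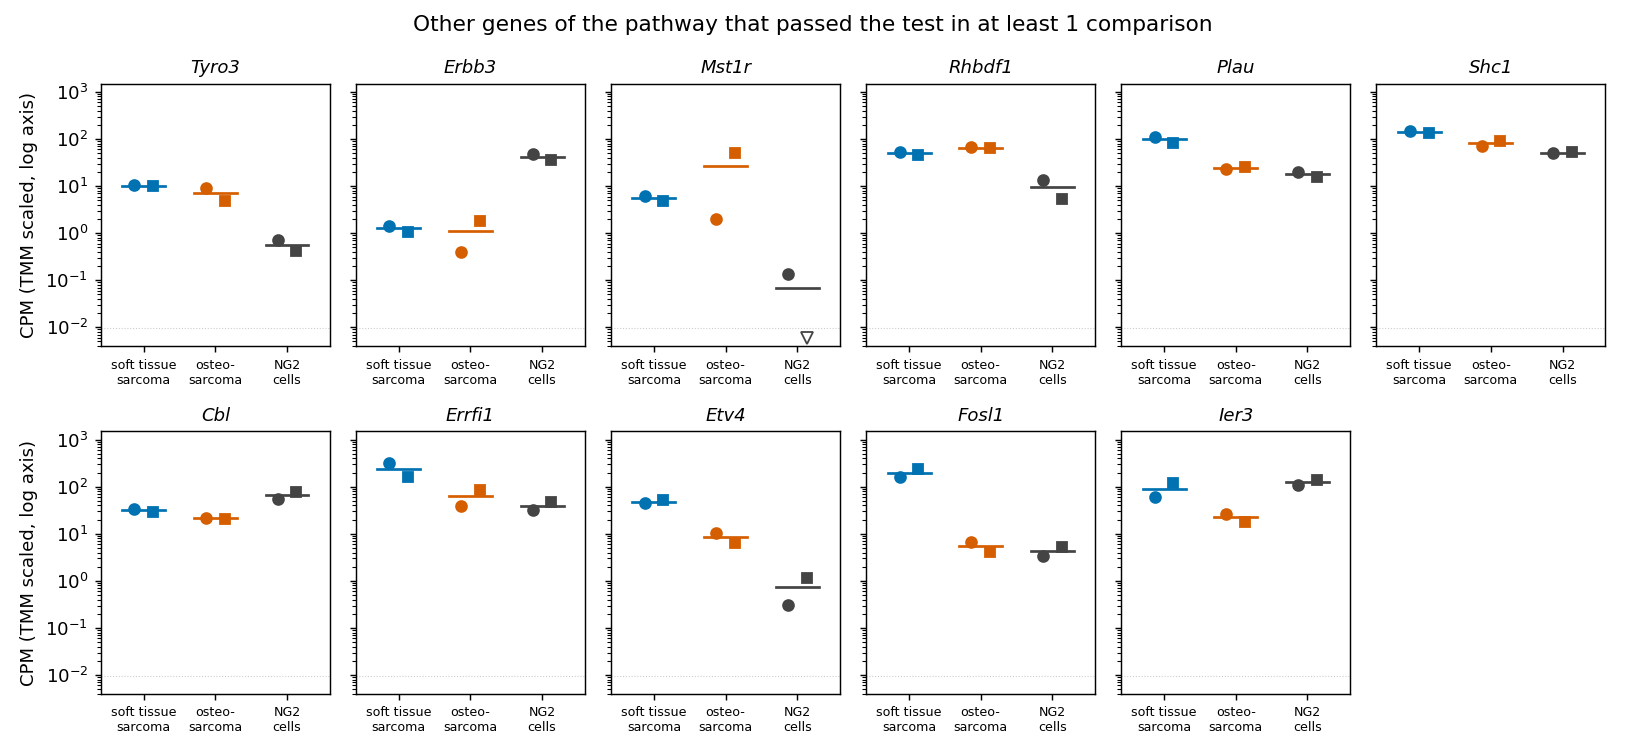
CPM (log axis) of the 11 other genes of the pathway that passed the test in at least 1 comparison, drawn as for the members, with circles for replicate 1, squares for replicate 2 and open triangles for 0 counts. Fosl1 and Plau are highest in soft tissue sarcoma, Tyro3, Rhbdf1 and Etv4 are above NG2 cells in both tumour types, and Erbb3 is highest in NG2 cells.

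The genes whose log2 CPM followed each receptor most closely over the 6 libraries are given as a description, since the libraries share groups and lanes. For Axl they were Pfkl, Rab15 and Anxa5, with Pearson's r of 0.995, 0.994 and 0.992. For Met they were Muc6, Anxa1 and Ctsb, with r of 0.992, 0.992 and 0.991. For Egfr they were Ank2, Pde10a and Fbln1, with r of 0.993, 0.991 and 0.989. An r of at least 0.95 was reached by 167 tested genes for Axl, 42 for Met and 43 for Egfr. Rab15 and Muc6 were low. Rab15 was at 2.89 and 2.97 CPM in soft tissue sarcoma and 0.152 and 0.0356 CPM in osteosarcoma, and at 0 in both NG2 cell libraries. Muc6 lay between 0.305 and 1.66 CPM in all libraries.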

How the data were processed

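Per the labels' protocols, about 10 ng of total RNA per sample was primed with oligo(dT), copied by template switching and amplified in 20 PCR cycles. The authors deposited raw read counts, 1 table per library. The submitters' processing notes name the tools STAR, HTSeq, DESeq2, FastQC, cutadapt and Trim Galore and the builds GRCm38 and mm10, while the strand setting and annotation release are not given in the sources used here. Reads on no annotated gene were left out. They were 33.2% of each NG2 cell library and 19.5% to 23.4% of the tumour libraries, so this share differed with the group. Symbols, positions and exon lengths came from GENCODE M21 (GRCm38).

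Counts were tested with edgeR 4.0.16 in R 4.3.3: TMM scaling, filterByExpr (min.count 10, min.total.count 15; 19024 genes left), 1 model of the 3 groups without covariates, quasi-likelihood F tests with 3 residual degrees of freedom, and Benjamini-Hochberg adjustment over all tested genes at 0.05. Rose and fell are used of genes past that threshold. A standard error is the log2 fold change divided by the square root of F. An exact permutation test of 2 against 2 libraries cannot go below p = 0.333. The code was tested on simulated data. Intervals and floors cover counting error only, since amplified reads that carry no molecular identifier can repeat a molecule. The members and lists were chosen with earlier results of these data known. The text names all 10 members, up to 4 called genes of each pathway list in order of p, and the 3 protein-coding genes closest to each receptor; other genes of the lists that are named without a call were chosen after their values were seen. Alternatives were other scalings and filters, DESeq2 1.42.0, fits of 2 groups, fits without 1 library, removal of immunoglobulin and mitochondrial genes, and a replicate block.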

Additional observations from a re-analysis of the deposited data

How the results depend on the processing

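With 2 libraries per group the counts of called members moved with single libraries. Soft tissue sarcoma against NG2 cells had 1 member that rose, 3 by DESeq2, 4 in a fit of the 2 groups compared, and 0 to 4 with each library left out. In osteosarcoma against NG2 cells 2 rose, 0 in a fit of the 2 groups, 1 with a replicate block, and 0 to 2 with each library left out; 0 fell, 1 without the filter on low counts, 3 by DESeq2, and 0 to 2 with each library left out. For soft tissue sarcoma against osteosarcoma 0 rose, 1 without the filter, 5 by DESeq2, and 0 to 2 with each library left out; 0 fell, and 1 by DESeq2. The causes were not tested.

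Log2 fold changes that turned their direction with a library left out ranged between -1.80 and 3.73 for Met, -2.58 and 1.54 for Hgf, -2.13 and 1.50 for Egfr, -7.59 and 2.45 for Ereg and -3.67 and 0.30 for Hbegf in osteosarcoma against NG2 cells. They ranged between -2.31 and 2.68 for Areg and -0.57 and 3.33 for Nrg1 in soft tissue sarcoma against NG2 cells, and between -2.86 and 1.17 for Tgfa in soft tissue sarcoma against osteosarcoma. Hgf was at 0.02 in osteosarcoma against NG2 cells with upper quartile scaling. Under the other settings, which include the fits of 2 groups, 218 values of members kept direction and call, 16 gained a call, 3 lost it and 1 turned direction.

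Over all genes, the calls (rose and fell) for soft tissue sarcoma against NG2 cells were 1882 and 1789, against 3218 and 3369 by DESeq2 and 2671 and 2781 in the fit of 2 groups. For osteosarcoma against NG2 cells they were 1992 and 2094, against 3382 and 3584 by DESeq2 and 808 and 1275 in the fit of 2 groups. For soft tissue sarcoma against osteosarcoma they were 16 and 11, against 1145 and 780 by DESeq2, 247 and 162 without the filter, 53 and 32 with a minimum of 50 counts in 2 libraries, and 0 in the fit of 2 groups.

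Same-numbered replicates did not deviate together over all genes (correlations of 0.0355, 0.00238 and -0.0813 between groups). With 2 libraries per group this cannot show whether replicates were paired, and the labels name no pairing. With the replicate block the calls over all genes were 1105 and 1104 in soft tissue sarcoma against NG2 cells, 1247 and 1413 in osteosarcoma against NG2 cells, and 4 and 4 between the tumour types, and Axl in osteosarcoma had a log2 fold change of 1.35 (adjusted p = 0.0712). Areg, Ereg, Tgfa and Nrg1 held few counts in at least 1 group, which limits their fold changes. The part of depth in this was not tested.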
